A study of Mus musculus with 12 samples.

Results

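The genes described here encode 4 neuropeptide precursors and 6 of their receptors: Penk, Pdyn and Pnoc, the precursors of the enkephalins, the dynorphins and nociceptin, with the opioid receptor genes Oprm1, Oprd1, Oprk1 and Oprl1, and Tac1, the precursor of substance P and neurokinin A, with the tachykinin receptor genes Tacr1 and Tacr3. They were taken from the table of messenger RNA levels by gene symbol and are 10 of its 22564 genes. All 10 exceeded the minimum for testing, an average of 0.5 FPKM in the 12 libraries, which 13517 genes met. FPKM, the number of fragments scaled by transcript length and by mapped fragments, is a level corrected for transcript length and for library depth.

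The samples were pieces of amygdala, dissected to hold mainly its basolateral part, from male C57BL/6J mice aged 10 weeks, with 3 mice and 3 libraries in each of 4 groups. F mice were trained to fear a tone by pairing it with foot shock, and the control mice went through the same session without shock and were sampled with them. E mice were conditioned in the same way and on the next day heard the tone repeatedly without shock, which is extinction training. RE mice received in addition a single reminder of the tone, the retrieval trial, before that extinction training. F tissue was taken 1 h after conditioning, and E and RE tissue 1 h after the last extinction session, so where E or RE is compared with control or F the stage of training at sampling and the training itself cannot be told apart. Whether E and RE tissue was taken on the same dates is not given in the sources used here.

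Opioid peptides are cut from large precursors, stored in dense-core vesicles and released to act on receptors that couple to inhibitory G proteins, which lower neuronal excitability and transmitter release. Enkephalins act mainly on the delta and mu receptors (Oprd1, Oprm1), dynorphins on the kappa receptor (Oprk1) and nociceptin on its own receptor (Oprl1). Substance P acts mainly on the receptor encoded by Tacr1, whereas the receptor encoded by Tacr3 prefers neurokinin B, the product of Tac2, and both couple to Gq and excite neurons. In the amygdala and the neighbouring striatum these peptides are made mostly by inhibitory neurons, and dynorphin with substance P, and enkephalin, are classical products of separate classes of striatal spiny neurons.

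On the GRCm38 build, Penk lies on chr4:4133531-4138819 on the minus strand, Pdyn on chr2:129686565-129699844 on the minus strand and Pnoc on chr14:65400673-65425472 on the minus strand. Tac1 lies on chr6:7554879-7565834 on the plus strand. The receptor genes are Oprm1 on chr10:6758506-7038198 (plus), Oprd1 on chr4:132110726-132144486 (minus), Oprk1 on chr1:5588466-5606131 (plus), Oprl1 on chr2:181715016-181720985 (plus), Tacr1 on chr6:82402334-82560104 (plus) and Tacr3 on chr3:134829007-134934579 (plus). No other annotated gene overlaps a member on its own strand. Penk overlaps A830012C17Rik, and Oprm1 overlaps Gm10945 and Ipcef1, on the opposite strand, and the library kit kept the strand. How the counting used strand is not given in the sources used here.

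Libraries held between 7653904 (E 1) and 23167338 (control 1) fragments over all genes. Control 2, F 1, E 2 and RE 4 stood apart from the other 8 on the first principal component of the long noncoding RNA levels (46.4 to 68.1 against -31.0 to -21.4, 18.4% of the variance), so each group held 1 such library, and differences are given below also for the other 8 alone where they changed by over 1.5 times. Markers of basolateral principal neurons were present in every library, with Slc17a7 at 162 to 388 FPKM. Markers of striatal spiny neurons were also present in every library: the summed level of 20 of them was 349 to 1453 FPKM in control, 349 to 1002 in F, 1066 to 1293 in E and 594 to 1757 in RE, with Ppp1r1b, Pde10a and Pde1b highest. Markers of central amygdala summed to 8.44 to 33.96 FPKM. Of 16 hypothalamic markers 6 averaged 0.5 FPKM or more and Hmx2 was at 0 in every library. The 16 summed to 96.2 to 199.5 FPKM in control, 69.6 to 166.9 in F, 91.8 to 137.5 in E and 46.9 to 77.3 in RE. Nnat was the highest of them, at a mean of 94.3 FPKM, and the next, Avp, averaged 5.83. The sum thus mainly follows Nnat and says little about the other hypothalamic markers. In bulk tissue, fewer cells of a type and less RNA per cell cannot be told apart, which holds for every difference below.

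A set of 5 genes, Penk, Pdyn, Tac1, Tacr1 and Tacr3, had their highest group mean in E, and in each of them the 3 E libraries lay above every F and every RE library. Oprm1 was lowest in RE, below every library of the other groups. Oprd1 and Oprk1 had their highest means in RE, and Pnoc and Oprl1 overlapped in every comparison of groups. None of these differences passed the test across all genes.

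**Figure D1:**
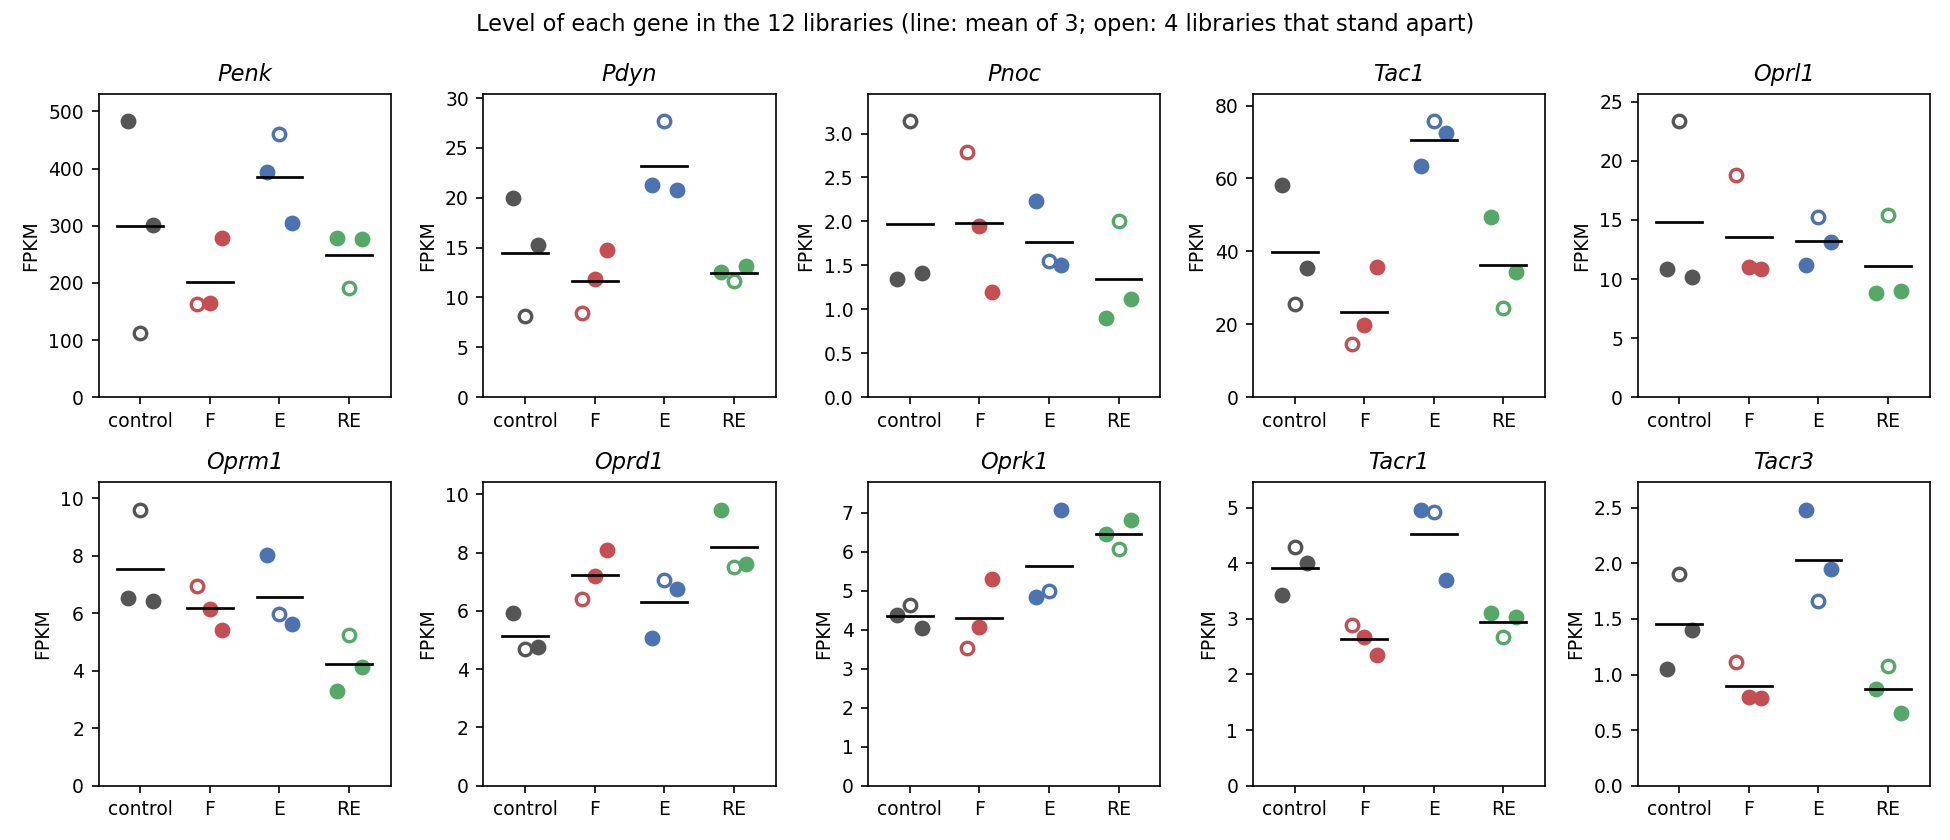
Level of each of the 10 genes in FPKM (vertical axis, from 0) in each of the 12 libraries by group (horizontal axis). Points are libraries, lines are means of 3 and open points are the 4 libraries that stand apart. In Penk, Pdyn, Tac1, Tacr1 and Tacr3 the E points lie above all F and RE points, and in Oprm1 the RE points lie below all others.

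With limma on log2(FPKM + 0.1) and Benjamini-Hochberg adjustment over 13517 genes, 0 of the 10 genes passed at an adjusted p under 0.05 in each of the 6 comparisons. The share of all tested genes that passed was 0% in F against control, 0% in E against control, 0.0666% in RE against control, 0.614% in RE against E, 0.0814% in E against F and 0% in RE against F. By edgeR's quasi-likelihood test on fragments recovered from the deposited values, 1 of the 10 passed in RE against E (Tacr3, beside 1.29% of all genes tested) and 1 in E against F (Tacr1, beside 0.577%), and 0 in each of the other 4 comparisons.

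At an unadjusted limma p under 0.05, 5 of the 10 genes differed in E against F, all higher in E, where 10.8% of all genes did so and 6.27% were higher. In RE against E it was 6 of 10, 5 lower and 1 higher, beside 10.4% of all genes (6.83% lower and 3.58% higher). In RE against control it was 5 of 10 (9.65% of all genes), in F against control 4 of 10 (7.08%), in E against control 2 of 10 (5.13%) and in RE against F 2 of 10 (7.03%). Groups did not overlap for 7 of the 10 in RE against E, 6 lower and 1 higher (15.6% of all genes, 10.2% lower and 5.38% higher), 5 in E against F, all higher (18.9%, 11.4% higher), 4 in RE against control (12.7%), 3 in E against control (10.5%), 2 in F against control (12.5%) and 2 in RE against F (11.2%). The comparisons share libraries, the E libraries being in both E against F and RE against E, so these counts are not independent of each other. The median log2 fold change of the 10 was 0.56 in E against F and -0.61 in RE against E, where the medians of all tested genes were 0.02 and -0.05.

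**Figure D2:**
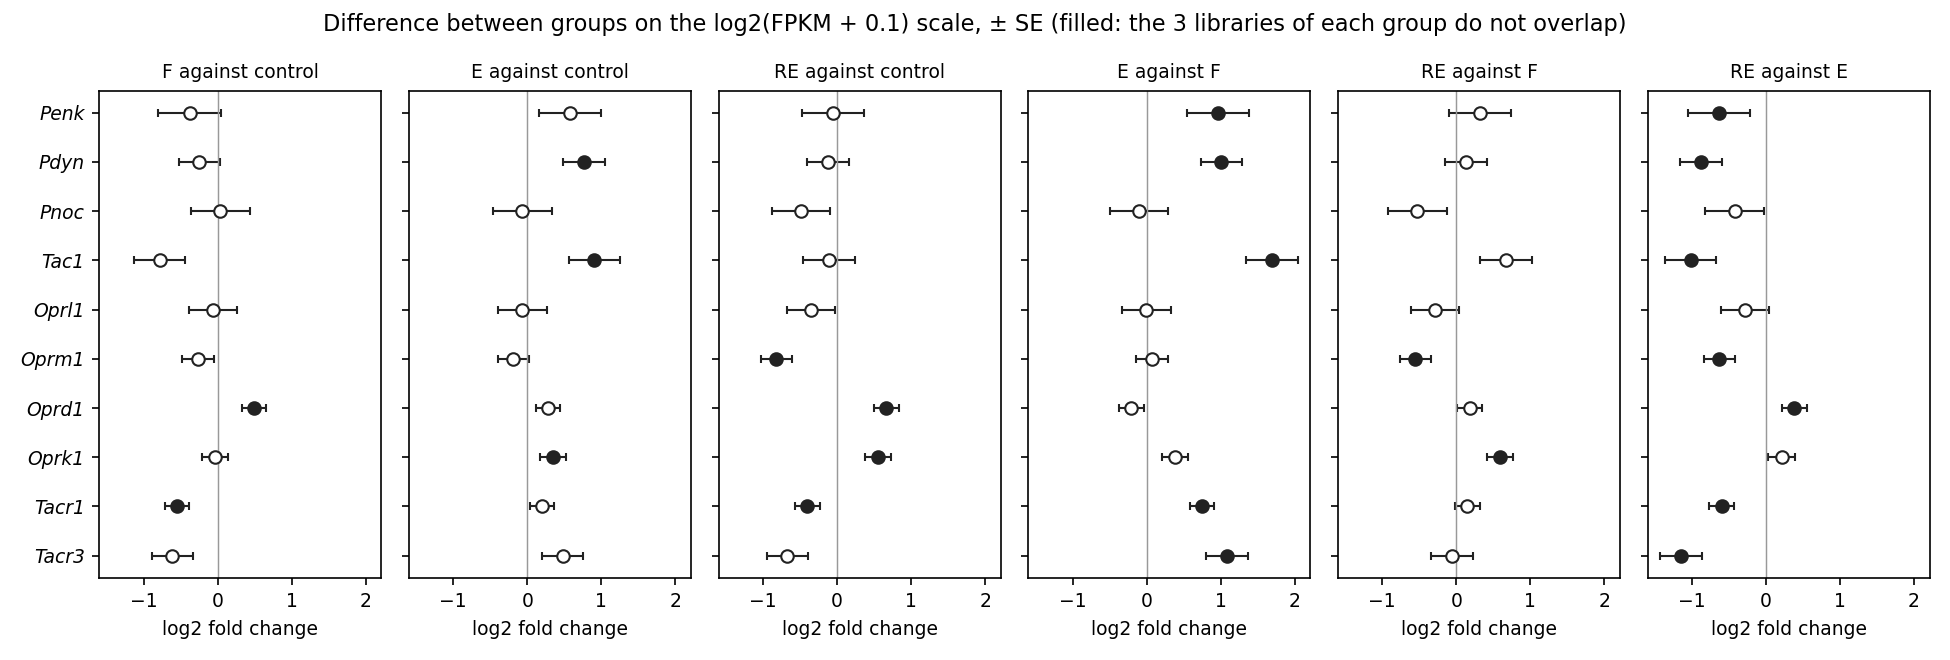
Log2 fold change of each gene on the log2(FPKM + 0.1) scale (horizontal axis) with its SE, in the 6 comparisons (panels). Filled points are genes whose 3 libraries per group do not overlap. In E against F, Tac1 lies farthest to the right (1.69), and in RE against E the same gene (-1.02) and Tacr3 (-1.15) lie farthest to the left.

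Penk was by far the most abundant of the 10 genes, with a mean of 284 FPKM over all libraries, above 99.4% of the genes tested. It was at 483, 113 and 301 FPKM in control 1 to 3, at 163, 164 and 279 in F 1 to 3, at 394, 459.6 and 304 in E 1 to 3, and at 278, 191 and 276 in RE 3 to 5. The control libraries held both the highest and the lowest value, whereas the E libraries were all above the F and RE libraries, by a narrow margin. The difference on the log2 scale was 0.96 ± 0.42 (SE) in E against F (limma adjusted p = 0.426) and -0.64 ± 0.42 in RE against E (adjusted p = 0.692). With the 8 libraries alone the latter was -0.32.

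Pdyn, which encodes the dynorphins, was at 20.0, 8.12 and 15.2 FPKM in control 1 to 3, at 8.46, 11.8 and 14.7 in F 1 to 3, at 21.3, 27.7 and 20.7 in E 1 to 3, and at 12.6, 11.7 and 13.2 in RE 3 to 5. Every E library lay above every library of the other 3 groups, and the RE libraries lay close together (12.5 ± 0.74 FPKM, SD, against 23.2 ± 3.87 in E, n = 3 each). Pdyn differed by 1.01 ± 0.28 in E against F (limma adjusted p = 0.185), by 0.76 ± 0.28 in E against control (adjusted p = 0.895) and by -0.88 ± 0.28 in RE against E (adjusted p = 0.245). The difference of E from control was 0.40 without control 2 and 0.27 with the 8 libraries alone, and that of E from F was 0.66 with the 8.

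Tac1, the substance P precursor, had the largest difference of the 60 tested here, in E against F, and the widest spread of the 10 genes over libraries (SD 0.76 on the log2 scale, more than in 96.5% of the genes tested). It was at 58.2, 25.6 and 35.3 FPKM in control 1 to 3, at 14.6, 19.7 and 35.6 in F 1 to 3, at 63.5, 75.7 and 72.4 in E 1 to 3, and at 49.4, 24.6 and 34.4 in RE 3 to 5. All 3 E libraries exceeded all 9 others, while control, F and RE overlapped one another. Tac1 was higher in E than in F by 1.69 ± 0.35 on the log2 scale, a mean of 70.5 against 23.3 FPKM (limma adjusted p = 0.0843). It was higher in E than in control by 0.91 ± 0.35 (adjusted p = 0.895), a difference of 0.58 with the 8 libraries alone. It was lower in RE than in E by a log2 fold change of -1.02 ± 0.35 (adjusted p = 0.291). F against control was -0.78 ± 0.35 (adjusted p = 0.693) with groups that overlapped, and this was -0.47 without control 1 and -0.50 without F 1. With a term for the 4 libraries that stand apart, the difference between E and F had an adjusted p of 0.0301, where 0.954% of all genes passed, and over all alternatives run that adjusted p lay between 0.00691 and 0.325.

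Pnoc, the nociceptin precursor, was the least abundant of the peptide genes, with 27 to 125 fragments per library. It was at 1.34, 3.14 and 1.41 FPKM in control 1 to 3, at 2.79, 1.94 and 1.19 in F 1 to 3, at 2.24, 1.55 and 1.5 in E 1 to 3, and at 0.896, 2.01 and 1.12 in RE 3 to 5. Its groups overlapped in all 6 comparisons and its highest values were in control 2 and F 1, which are among the libraries that stand apart.

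Penk, Pdyn and Tac1 are also products of striatal spiny neurons, and markers of these cells differed in the same direction in some comparisons. All 20 striatal markers were higher in E than in F (median log2 fold change 1.17, 0 past the adjusted test) and all 20 in E than in control (0.65), but in RE against E 8 were higher and 12 lower, with a median of -0.13. The 3 RE libraries held a summed striatal level of 1757, 594 and 1314 FPKM, on both sides of the E libraries at 1128, 1293 and 1066. The ratio of Tac1 to that sum, which does not include Tac1, was 5.63%, 5.86% and 6.79% in E 1 to 3 but 2.81%, 4.14% and 2.62% in RE 3 to 5 and 4.19%, 3.72% and 3.55% in F 1 to 3. The E ratios of Tac1 lay above all RE and F ratios, and control 2 was the highest of all at 7.33%. For Pdyn, also outside the sum, the ratio was 1.88 to 2.14% in E and 1.47 to 2.43% in F, which overlapped, and 0.715%, 1.97% and 1.00% in RE 3 to 5. For Penk, likewise, it was 28.5 to 35.5% in E and 27.8 to 46.6% in F, and 15.8%, 32.2% and 21.0% in RE 3 to 5.

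**Figure D3:**
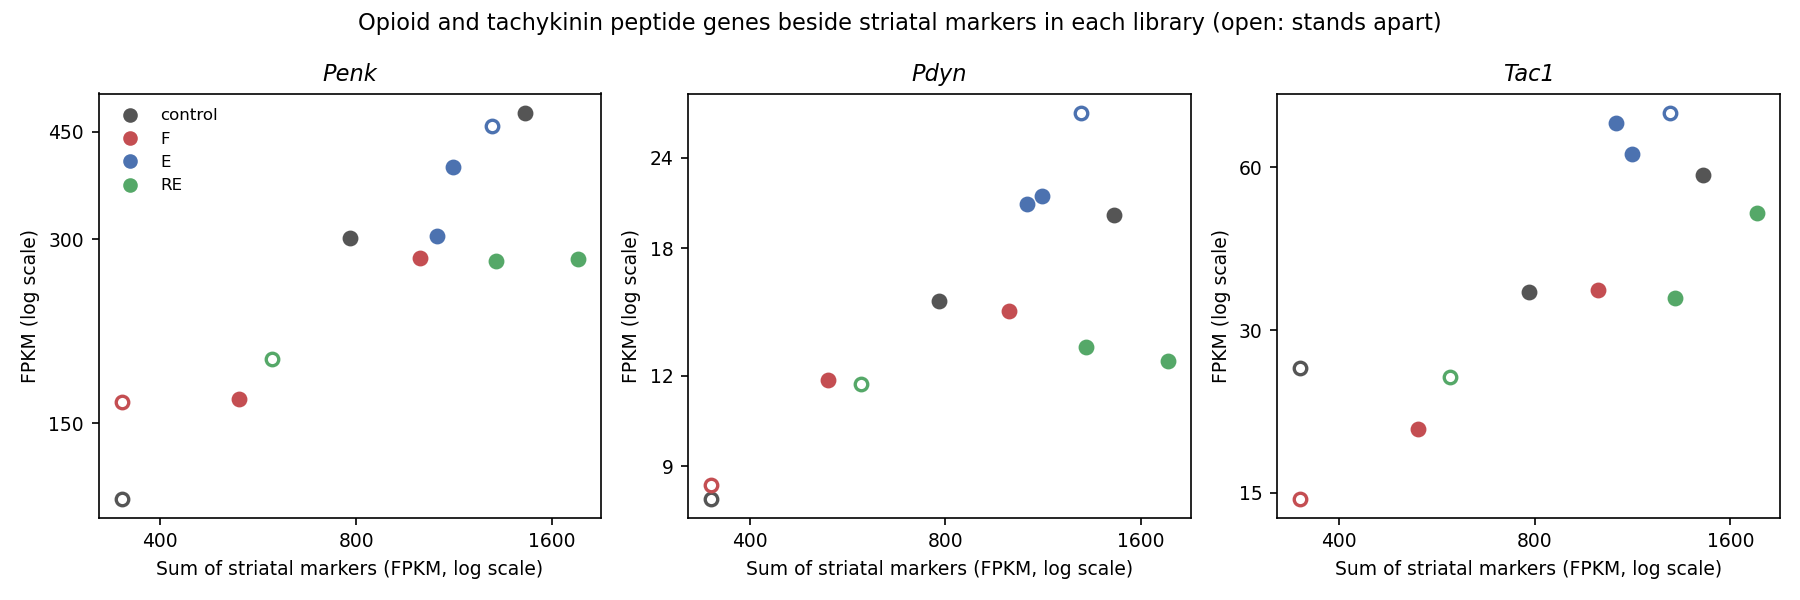
Level of Penk, Pdyn and Tac1 in FPKM (vertical axes, log scale) against the summed FPKM of 20 striatal spiny neuron markers (horizontal axes, log scale) in the 12 libraries, coloured by group, with open points for the 4 libraries that stand apart. RE 3 and RE 5 hold 1757 and 1314 FPKM of striatal markers, more than each E library, and RE 4 holds 594, less than each. The RE libraries lie below the E libraries in all 3 genes.

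A term for the mean log2 level of the striatal markers in each library was added after the data were seen. With this term the E against F differences of Penk, Pdyn and Tac1 were 0.20, 0.53 and 1.02, against 0.96, 1.01 and 1.69 without it. The striatal sums of E (1066 to 1293 FPKM) and F (349 to 1002) did not overlap. In that comparison the term thus partly follows the groups and cannot separate cell content from training. In E against control the differences with the term were 0.47 for Pdyn and 0.49 for Tac1, against 0.76 and 0.91 without it. In RE against E the values with the same term were -0.57 for Penk, -0.84 for Pdyn and -0.96 for Tac1, against -0.64, -0.88 and -1.02 without it. The term has a single slope per gene over all libraries, and the part of striatal content in RE against E was not tested. In that fit 4 of the 10 genes passed in RE against E, all lower in RE: Tac1 (adjusted p = 0.00791), Pdyn (0.0190), Tacr3 (0.0203) and Oprm1 (0.0456), where 2.53% of all genes tested passed. In E against F, Tac1 (adjusted p = 0.0208) and Tacr3 (0.0378) passed, beside 0.843% of all genes.

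Other marker lists were counted in the same way. Basolateral principal neuron markers were lower in E than in F in 8 of 8 (1 past the adjusted test, as were 0.0814% of all genes) and higher in RE than in E in 8 of 8 (2 past it, with 0.614% of all genes), and summed to 244 to 356 FPKM in E, 407 to 525 in F and 352 to 509 in RE. Of the central amygdala markers 5 of 5 were lower in RE than in E (1 past the test), at 8.44 to 18.5 FPKM in RE against 27.9 to 32.8 in E. Of the endothelial markers 4 of 4 were higher in E than in F and than in control (0 past the test), and 4 of 4 lower in RE than in E (2 past it, median -1.16), with sums of 24 to 30.4 FPKM in E, 12.5 to 12.9 in RE, 19.7 to 20.9 in F and 16.7 to 19.3 in control. Intercalated cell markers were higher in E than in F in 4 of 4 (0 past the test) and lower in RE than in E in 4 of 4 (1 past it), and summed to 141 to 166 FPKM in E, 80.0 to 115 in F and 81.6 to 146 in RE. GABAergic neuron markers were higher in E than in F in 7 of 11 (1 past the test) and lower in RE than in E in 7 of 11 (1 past it), at 487 to 508 FPKM in E, 429 to 458 in F and 419 to 467 in RE. Oligodendrocyte markers were higher in E than in F in 4 of 4 (0 past the test) and summed to 942 to 1050.5 FPKM in E and 546 to 751 in F, and 672 to 1647 in RE. Control summed to 862 to 1097 FPKM for oligodendrocyte, 498 to 519 for GABAergic and 94.0 to 189 for intercalated markers. It summed to 316 to 342 for basolateral and 19.8 to 34.0 for central amygdala markers. Each of these control ranges overlapped that of E. Of the tested hypothalamic markers 6 of 6 were lower in RE than in E and 5 of 6 higher in E than in F, none past the test. In E against control 4 were higher and 2 lower. The hormone gene Avp averaged 17.1 FPKM in E and 1.55 in RE. Avp and Oxt of this list, and Nts of the central amygdala list, are among the genes the study picked from these samples. The study reported them as lower in RE than in E, so their direction here is not independent evidence. Nnat, the highest of these markers, averaged 126 FPKM in control, 111 in F, 85.3 in E and 54.9 in RE. A term for the hypothalamic markers, also added after the data were seen, enlarged the RE against E differences of Penk (-1.69), Pdyn (-1.59) and Tac1 (-1.75) and reduced those of Tacr3 (-0.62) and Oprm1 (-0.18). In that fit 3 of the 10 genes passed in RE against E (Penk, Pdyn and Tac1, beside 1.44% of all genes). In E against F 4 passed, beside 4.31%: the same 3, higher in E, and Oprl1, lower by a log2 fold change of -0.73. Pdyn also passed in E against control (0.51%). Without the term Oprl1 was at -0.0019 ± 0.33 in E against F, with overlapping groups. The mean centred log2 level of the tested hypothalamic markers was 1.20 to 1.58 in E, at most 0.46 in F and at most 0.13 in RE. It was -1.08, 2.28 and -1.13 in control 1 to 3. Control 2, which stands apart, was thus the highest of all libraries, which limits the call of Pdyn in E against control. This mean weighs the 6 tested markers alike, unlike their sum, which mainly follows Nnat. The term thus partly follows these groups and cannot separate tissue content from training. The part of any cell type in the members' differences was not tested.

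Among the opioid receptors, Oprm1, the mu receptor gene, was at 6.53, 9.61 and 6.44 FPKM in control 1 to 3, at 6.94, 6.16 and 5.42 in F 1 to 3, at 8.03, 5.99 and 5.63 in E 1 to 3, and at 3.31, 5.26 and 4.11 in RE 3 to 5. The RE libraries were the 3 lowest of the 12, although the highest of them, RE 4, was close to F 3 and E 3. The log2 fold change was -0.82 ± 0.21 in RE against control (limma adjusted p = 0.170), -0.63 ± 0.21 in RE against E (adjusted p = 0.280) and -0.55 ± 0.21 in RE against F (adjusted p = 0.670). With the striatal term the last of these was -0.27.

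Oprd1, the delta receptor gene, showed the smallest spread of the 10 genes on the log2 scale (SD 0.31). It was at 5.93, 4.71 and 4.75 FPKM in control 1 to 3, at 6.39, 7.21 and 8.07 in F 1 to 3, at 5.07, 7.05 and 6.75 in E 1 to 3, and at 9.47, 7.51 and 7.62 in RE 3 to 5. Control was low in every library, F and RE were above control without overlap, RE was also above E, and E overlapped both control and F. Oprd1 differed by 0.67 ± 0.16 in RE against control (limma adjusted p = 0.146), by 0.49 ± 0.16 in F against control (adjusted p = 0.476) and by 0.38 ± 0.16 in RE against E (adjusted p = 0.437). The last was 0.24 without E 1 and 0.20 with the hypothalamic term.

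Oprk1, the kappa receptor gene, was at 4.38, 4.63 and 4.05 FPKM in control 1 to 3, at 3.53, 4.07 and 5.29 in F 1 to 3, at 4.83, 4.99 and 7.08 in E 1 to 3, and at 6.44, 6.08 and 6.81 in RE 3 to 5. RE was above control and F in every library, E was above control in every library, and the highest single value was in E 3, so that E and RE overlapped. The log2 fold change was 0.56 ± 0.18 in RE against control (limma adjusted p = 0.270), 0.59 ± 0.18 in RE against F (adjusted p = 0.635) and 0.35 ± 0.18 in E against control (adjusted p = 0.995). The last of these was 0.17 without E 3.

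Oprl1, the nociceptin receptor gene and the most abundant of the 6 receptor genes at a mean of 13.2 FPKM, followed the libraries that stand apart rather than the groups. It was at 10.8, 23.4 and 10.1 FPKM in control 1 to 3, at 18.8, 11.0 and 10.8 in F 1 to 3, at 11.2, 15.3 and 13.1 in E 1 to 3, and at 8.80, 15.5 and 9.01 in RE 3 to 5. The 4 libraries that stand apart were the highest in their groups and lay at 15.3 to 23.4 FPKM, above all 8 others at 8.80 to 13.1. Its groups overlapped in all 6 comparisons.

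Tacr1, the substance P receptor gene, was at 3.43, 4.29 and 4.01 FPKM in control 1 to 3, at 2.89, 2.68 and 2.35 in F 1 to 3, at 4.97, 4.92 and 3.70 in E 1 to 3, and at 3.11, 2.67 and 3.03 in RE 3 to 5. F and RE overlapped each other at the low end, and control and E overlapped each other at the high end, with no overlap between these 2 sets. Tacr1 differed by 0.75 ± 0.16 in E against F (limma adjusted p = 0.111), by -0.60 ± 0.16 in RE against E (adjusted p = 0.163), by -0.55 ± 0.16 in F against control (adjusted p = 0.407) and by -0.40 ± 0.16 in RE against control (adjusted p = 0.441). In edgeR's test the first of these was 0.75 with an adjusted p of 0.0346. Under all alternatives run, E against F stayed between 0.60 and 0.88 and RE against E between -0.73 and -0.47. The difference between RE and control was -0.26 with the 8 libraries alone.

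Tacr3, the neurokinin B receptor gene, was the least abundant of the 10, with 38 to 114 fragments per library, and it is among the genes the study itself picked from these samples, so its direction here is not independent evidence. It was at 1.05, 1.90 and 1.40 FPKM in control 1 to 3, at 1.11, 0.800 and 0.788 in F 1 to 3, at 2.48, 1.66 and 1.95 in E 1 to 3, and at 0.866, 1.08 and 0.653 in RE 3 to 5. E lay above F and RE without overlap, and control lay between and overlapped all 3. The log2 fold change was 1.09 ± 0.28 in E against F (limma adjusted p = 0.150), -1.15 ± 0.28 in RE against E (adjusted p = 0.113), -0.67 ± 0.28 in RE against control (adjusted p = 0.443) and -0.61 ± 0.28 in F against control (adjusted p = 0.704). In edgeR's test RE against E was -1.17 with an adjusted p of 0.0433. At this low level the values depend on the pseudocount, and with a pseudocount of 1 they were 0.67, -0.70, -0.39 and -0.36 in the same order.

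**Figure D4:**
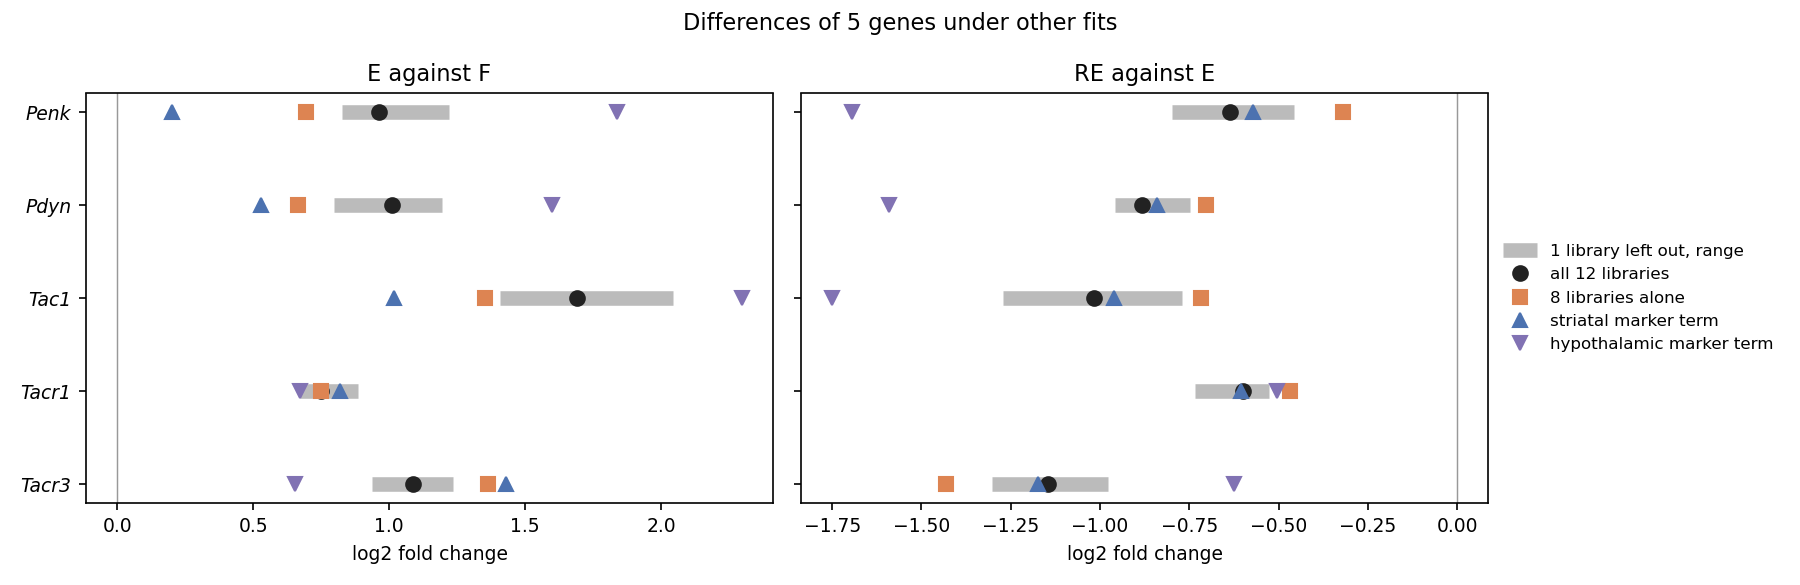
Log2 fold change (horizontal axis) of Penk, Pdyn, Tac1, Tacr1 and Tacr3 in E against F and in RE against E, in the fit of all 12 libraries (circles), of the 8 libraries alone (squares), with a striatal marker term (upward triangles) and with a hypothalamic marker term (downward triangles). Grey bars give the range with 1 library left out in turn. No value crosses 0, which leaving 1 library out could not bring about, since these groups do not overlap. Penk in E against F moves most toward 0 (0.20 with the striatal term).

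Ligand and receptor genes did not share one order of groups. In RE against E the tachykinin pair Tac1 and Tacr1 were both lower (-1.02 and -0.60). Penk was lower (-0.64), as was its receptor gene Oprm1 (-0.63), while Oprd1 was higher (0.38). Pdyn was lower (-0.88), while its receptor gene Oprk1 was at 0.21 ± 0.18 with overlapping groups. Pnoc and Oprl1 were at -0.42 ± 0.40 and -0.29 ± 0.33. In E against F, Tac1 and Tacr1 were both higher (1.69 and 0.75), and Penk and Pdyn were higher (0.96 and 1.01), whereas Oprm1, Oprd1 and Oprk1 were at 0.07 ± 0.21, -0.20 ± 0.16 and 0.38 ± 0.18, each with overlapping groups.

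Promoter sequence was taken from RefSeq (GRCm38.p6) as the 250 bases before each start annotated there and searched on both strands for the cAMP response element, a site for the activity-regulated factor CREB, in its full form TGACGTCA and as its core TGACG. Of the 10 genes 7 were matched, with 12 windows, and Penk, Pnoc and Oprk1 were not. The full form was in 0 of the 12 windows, against 1.55% of 32851 windows of all genes, and the core, which the full form contains, was in 3 of the 12, against 17.8% of all. The 3 windows belong to Tac1, Tacr1 and Tacr3 and are printed with the core, or its reverse complement CGTCA, in capitals. Pdyn, whose E libraries likewise lay above F and RE, had no core in its windows, and Penk was not matched. The count is small, and a link between the core and the levels was not tested. The starts here are those of RefSeq, and for Tac1 and Tacr1 the gene bounds given above begin earlier, so part of these windows lies within those bounds. Counted from the RefSeq start, the cores lie 197 and 43 bases before the start in Tac1, 226 bases in Tacr1 and 58 bases in Tacr3. A match of letters is a description and not evidence of a bound factor. The windows are chr6:7554811-7555060 for Tac1, chr6:82402225-82402474 for Tacr1 and chr3:134828757-134829006 for Tacr3, all on the plus strand.
Tac1: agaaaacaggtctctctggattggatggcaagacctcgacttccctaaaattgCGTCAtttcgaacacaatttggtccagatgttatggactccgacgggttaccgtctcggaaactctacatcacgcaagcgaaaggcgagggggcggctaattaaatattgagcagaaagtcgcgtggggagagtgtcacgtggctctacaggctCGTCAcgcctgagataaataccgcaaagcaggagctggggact
Tacr1: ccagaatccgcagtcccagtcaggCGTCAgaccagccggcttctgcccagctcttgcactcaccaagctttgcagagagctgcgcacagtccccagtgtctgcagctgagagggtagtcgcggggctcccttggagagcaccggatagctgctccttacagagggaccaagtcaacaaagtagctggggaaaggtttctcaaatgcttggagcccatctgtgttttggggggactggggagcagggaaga
Tacr3: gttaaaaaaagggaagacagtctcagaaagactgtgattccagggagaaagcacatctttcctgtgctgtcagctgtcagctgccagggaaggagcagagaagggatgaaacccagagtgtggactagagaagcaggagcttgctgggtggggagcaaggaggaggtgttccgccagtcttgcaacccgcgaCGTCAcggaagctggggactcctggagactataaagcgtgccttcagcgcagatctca

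Genes that make, store, cut and relay these peptides were described by lists, with immediate early genes beside them. Of their 61 tested members 0 passed limma's adjusted test in each comparison, and 8 (F against control), 1 (E against control), 14 (RE against control), 9 (RE against E), 17 (E against F) and 14 (RE against F) had an unadjusted p under 0.05, where the shares of all genes were 7.08%, 5.13%, 9.65%, 10.4%, 10.8% and 7.03%. By edgeR 4 passed in RE against E (Cadps2, Kcnj3, Kcnj6 and Kcnj9, beside 1.29% of all genes), 1 in E against F (Kcnj6, beside 0.577%) and 0 in each of the others. Of 7 enzymes and partners of peptide processing, 7 were lower in E than in F (median -0.16, 2 with an unadjusted p under 0.05, 10.8% of all genes), and Pcsk2, the convertase that cuts proenkephalin and prodynorphin, was at 0.65 ± 0.13 in RE against control (limma adjusted p = 0.0932). Its chaperone Scg5 was at 0.27 ± 0.08 in RE against E (adjusted p = 0.213). Of 7 dense-core vesicle proteins, Cadps2, a priming factor, was at 0.92 ± 0.23 in RE against E (adjusted p = 0.119) and Scg2, secretogranin II, at -0.62 ± 0.17 in RE against control (adjusted p = 0.210). Of 9 peptidases 7 were higher in E than in F (median 0.14), and Mme, neprilysin, which degrades enkephalins and substance P, was at 1.67 ± 0.63 in E against F (adjusted p = 0.350).

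Downstream of the opioid receptors, 15 of 19 tested genes of Gi/o signalling were lower in E than in F (median -0.13, 6 with an unadjusted p under 0.05 beside 10.8% of all genes). In F against control 17 of the 19 were higher (median 0.15), and in E against control 10 were higher and 9 lower. Among the 19 are Kcnj9 and Kcnj6, subunits of the potassium channels that opioid receptors open. In E against F they were at -0.66 ± 0.16 (limma adjusted p = 0.124) and -0.53 ± 0.14 (adjusted p = 0.160), without overlap of the groups. Of 9 genes of Gq signalling, the route of the tachykinin receptors, Prkcb was at 0.60 ± 0.15 in RE against control (adjusted p = 0.138). Of 8 immediate early genes, which report recent activity, 8 were lower in E and 8 in RE than in F (medians -0.82 and -1.01), with Nr4a3 at -1.13 ± 0.20 in RE against F (adjusted p = 0.418). Of the other ligands, Tac2, the precursor of neurokinin B, was at 4.93, 25.0 and 8.86 FPKM in control 1 to 3, at 16.1, 5.59 and 5.79 in F 1 to 3, at 6.52, 6.06 and 3.06 in E 1 to 3, and at 3.02, 7.05 and 3.38 in RE 3 to 5. The groups overlapped and the highest values were in control 2 and F 1, which stand apart. Pomc, the precursor of beta-endorphin, averaged 0.818 over all libraries. Tac4 and Tacr2 averaged 0.00521 and 0.109 FPKM and were not tested.

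The genes closest to each member over the 12 libraries were found by the root mean square difference of centred log2 levels, among 12489 other genes averaging 1 FPKM or more. The 12 libraries share their group and their dissection, so these values are a description. Penk was closest to Abi3bp, Htr1d and Gnal (0.24 to 0.26, where the median gene was at 0.67), Pdyn to Ppp1r2, Htr1d and Adamts3 (0.19 to 0.20, median 0.57) and Tac1 to Syt6, Stk32a and Strip2 (0.23 to 0.25, median 0.78). Oprm1 was closest to Scg2, Zdbf2 and Arhgap24 (0.13 to 0.14, median 0.41), Oprd1 to the calcium channel genes Cacna1i and Cacnb4 and to Tbc1d30 (0.10 to 0.12, median 0.37), Oprk1 to Txnip, Zfp945 and Eml1 (0.15 to 0.17, median 0.37) and Oprl1 to Coprs, Gaa and Sertm1 (0.11 to 0.12, median 0.41). Tacr1 was closest to Megf10, Cdc42ep2 and Unc13c (0.14 to 0.16, median 0.38), Tacr3 to Ap1s2, Isoc1 and Gad2 (0.22 to 0.26, median 0.55) and Pnoc to Efcab1, Pnma3 and Samd14 (0.16 to 0.18, median 0.49). Among the 10 themselves the mutual nearest pairs were Penk with Pdyn (0.25), Pnoc with Oprl1 (0.27), Oprd1 with Oprk1 (0.29) and Tacr1 with Tacr3 (0.32), each the nearest of the other, while Oprm1 was nearest to Pnoc (0.27) and Tac1 to Pdyn (0.36).

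Noncoding products of these genes were scarce. The table of long noncoding RNAs held 12 transcripts at 4 of the genes, of which 1, the natural antisense transcript AK043612 at Penk, had a mean of at least 0.1 FPKM, at 0.213 with a range of 0.0989 to 0.414 over libraries. Of 13957 circular RNAs 3 came from these genes, 2 from Oprm1 and 1 from Oprk1, with 7 back-splice junction reads in all, each circle in 1 library. At 7324 to 23446 junction reads per library, no difference between groups was detectable for them.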

How the data were processed

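Ribosomal RNA-depleted, directional libraries were sequenced from amygdala of 12 mice. The study's methods name HISAT2 for alignment to the mouse genome and cuffdiff for levels, whereas CASAVA 1.8, BWA and the human build hg19 stand in the processing notes of the submitters. The coordinates in the files match mouse GRCm38. The authors deposited FPKM values per gene and, beside them, an estimated count per library that they had scaled by a library factor. For circular RNAs the deposited value is a count of junction reads. Division by what 1 fragment is worth in each library gave whole fragments, within 0.05, for 89.7 to 91.1% of values.

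The test was limma 3.58.1 in R 4.3.3 (moderated, with a mean trend, two-sided) on log2(FPKM + 0.1). A single fit held all 12 libraries and the 13517 genes that averaged 0.5 FPKM or more, and gave 6 comparisons. Fold changes are on that scale, which understates changes of low genes, and adjustment was by Benjamini-Hochberg over all genes tested. A fold change was given where the unadjusted p was under 0.05 or the groups did not overlap, and for the ligand and receptor pairs. Of each pathway list without a passing gene, at most 2 genes with the smallest p were named, of each marker list at most 3 of the highest level, and for likeness the 3 nearest genes. Kcnj3 was named after its values were seen. The replicates are separate mice, so p-values measure the spread between mice with dissection and library included. Members and lists were chosen with earlier results of these data known.

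Alternatives were a minimum of 1 FPKM or none, a pseudocount of 1, a common median, quantile normalization, robust moderation, the compared groups alone, a replicate block, a term for the 4 libraries that stand apart, the other 8 alone, edgeR 4.0.16 and each library left out. Terms for striatal and hypothalamic markers were added after the data were seen. Tests were run on simulated data with 200 changed genes. In RE against E limma recovered 30.4% of the genes changed 1.5-fold, 56.5% at 2-fold and 93.2% at 4-fold. A gene that differs by 1.5-fold or 2-fold can thus often fail the adjusted test. The authors' own fold changes and p-values were not used, and microRNA was not analysed here.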

Additional observations from a re-analysis of the deposited data

How the results depend on the processing

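Over 25 alternatives the 26 differences of single genes that had an unadjusted p under 0.05 or groups without overlap gave 636 values, and 0 of them changed sign. This was partly fixed in advance, since the differences were chosen by these same values. Where groups do not overlap, leaving 1 library out cannot reverse the sign. Several settings, such as robust moderation, also leave the fold change itself as it was. The count of sign changes is thus not a test of these differences. The number of the 10 genes past the adjusted test stayed at 0 in F against control, RE against control and RE against F. It was 1 in RE against E and 1 in E against F by edgeR on recovered fragments, and 1 in E against F with a term for the libraries that stand apart. With the striatal marker term it was 4 in RE against E and 2 in E against F. With the hypothalamic marker term it was 1 in E against control, 3 in RE against E and 4 in E against F. With any 1 library left out it stayed at 0 (range 0 to 0) in all 6 comparisons.

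With the replicate number as a block in the control, F and E libraries, 0 genes of the 10 passed in F against control, E against control and E against F. The numbers do not pair the libraries: the correlation of deviations of same-numbered libraries was -0.305 to 0.236 and exceeded 0.1 in 3 of 12 pairs. No paired analysis was possible because RE shares only 1 number with the other groups in the comparisons that include RE. Counts over all genes tested moved widely, from 83 to between 1 and 342 in RE against E, from 11 to between 0 and 583 in E against F, from 9 to between 1 and 167 in RE against control, from 0 to at most 69 in E against control, at most 5 in F against control and at most 3 in RE against F. The cause was not tested. Pnoc, with 27 to 125 fragments per library, and Tacr3, with 38 to 114, had the fewest fragments of the 10 genes, so relative counting error is largest in them.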
